A study of Homo sapiens with 4 samples.

Results

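Interferon-stimulated genes are the antiviral genes that cells switch on after they sense interferon, and 49 of them were followed among the 58229 genes measured in CD31+ cells with and without overexpression of the transcription factor HAND1. The 49 members were taken by gene symbol from a list that includes XAF1, a pro-apoptotic gene that was already known to rise in these libraries. The question was whether the rise of XAF1 was shared by the other members. RNA was sequenced from H1 cells, an established human embryonic stem cell line, that had gone through stepwise hematopoietic differentiation with activinA and BMP4 followed by VEGF and bFGF. CD31+ cells were collected at day 8 in a Control group without HAND1 overexpression (2 libraries) and in a HAND1_OE group with it (2 libraries). CD31, encoded by PECAM1, marks the surface of endothelial cells and of early blood cells. The construct and promoter that drove HAND1, whether the line was a single clone, and whether Control cells received the same vector or inducer are not given in the sources used here. They also do not say whether the 2 libraries of a group came from separate cultures. The p-values set each difference against the spread between libraries of a group, pooled in part over genes, and this spread may be technical.

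Type I interferons bind IFNAR1 and IFNAR2, whose kinases JAK1 and TYK2 act on STAT2. With IRF9 it forms part of a complex that binds the interferon-stimulated response element (ISRE) in the promoters of its target genes, while interferon gamma acts through the gamma-activated site (GAS). Pluripotent cells are known to respond weakly to interferon while expressing a subset of its targets, the IFITM genes among them, without it.

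Values are FPKM, fragments scaled to transcript length and library depth, so levels can be set side by side between genes. HAND1 itself was at 12.1 and 14.3 FPKM in Control against 520.5 and 517.4 FPKM in HAND1_OE (log2 fold change 5.20 ± 0.15, SE, adjusted p = 0.00145). Both libraries labelled as overexpressing were far above both Control libraries. Reads of introduced and endogenous HAND1 cannot be told apart. A gene was tested where it reached 1 FPKM in at least 2 of the 4 libraries, fold changes are on the log2(FPKM + 1) scale, which understates the change of low genes, and adjusted p-values are from limma with Benjamini-Hochberg adjustment over all 14622 genes tested. A gene is said to rise or fall where its adjusted p is under 0.05.

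Depth was read from the smallest steps of the values and came to about 21800000 and 21400000 fragments in Control and to 25900000 and 22700000 fragments in HAND1_OE. At these depths 1 fragment on a 3-kb transcript was worth between 0.0141 and 0.0171 FPKM. Endothelial markers were present in each library, with PECAM1 between 91.97 and 160.2 FPKM and CDH5 between 221.9 and 280.2 FPKM. Of the 11 endothelial markers, VWF rose (2.18 ± 0.34, adjusted p = 0.0338) and CLDN5 fell (-2.27 ± 0.17, adjusted p = 0.0070). EMCN was at 22.8 and 34.2 FPKM in Control against 58.5 and 88.3 FPKM in HAND1_OE, and the test was not passed (adjusted p = 0.0688). Markers of blood cells fell, with 8 of 11 pan-hematopoietic markers (10 tested) and 9 of 10 erythroid markers (9 tested) lower in HAND1_OE. Over all genes tested, 2.11% fell. Of the tested markers, 3 pan-hematopoietic and 2 erythroid ones passed the filter only through Control and had to be lower to be tested. In bulk RNA, fewer cells of a type and less RNA per cell cannot be told apart.

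Of the 49 members, 35 could be tested, 12 stayed under 1 FPKM in every library and 2 reached 1 FPKM in a single library. XAF1 was the only member that rose and IFITM1 the only one that fell. Over all genes tested, 2.04% rose and 2.11% fell. Without XAF1, 0 of 34 tested members rose and 1 fell, which is near this background. The rise of XAF1 was known when the list was drawn up and is therefore given as a description. XAF1 passed the filter only through HAND1_OE, and PSMB9 and IFIH1 only through Control, so these 3 had to differ to be tested. By sign alone, 8 tested members were higher and 27 lower, 77.1% with a log2 fold change below 0 against 61.3% of all genes tested. Their median log2 fold change was -0.21, against -0.08 over all genes. Without XAF1 the median was -0.26, and the remaining 34 ranged from -1.27 to 0.33.

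Groups that did not overlap were counted as a second description. HAND1_OE lay above Control without overlap in 3 tested members (8.57%), XAF1 among them, against 16.2% of all genes. It lay below Control without overlap in 15 (42.9%), against 30.1% of all genes, and the other 17 overlapped. PSMB9 and IFIH1, which had to be lower to be tested, are among the 15. Of all genes tested, 2.48% likewise passed the filter only through Control. At an unadjusted p under 0.05, 1 member was higher (XAF1) and 9 were lower (25.7%, PSMB9 among them), against 6.82% and 10.6% of all genes tested.

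**Figure D1:**
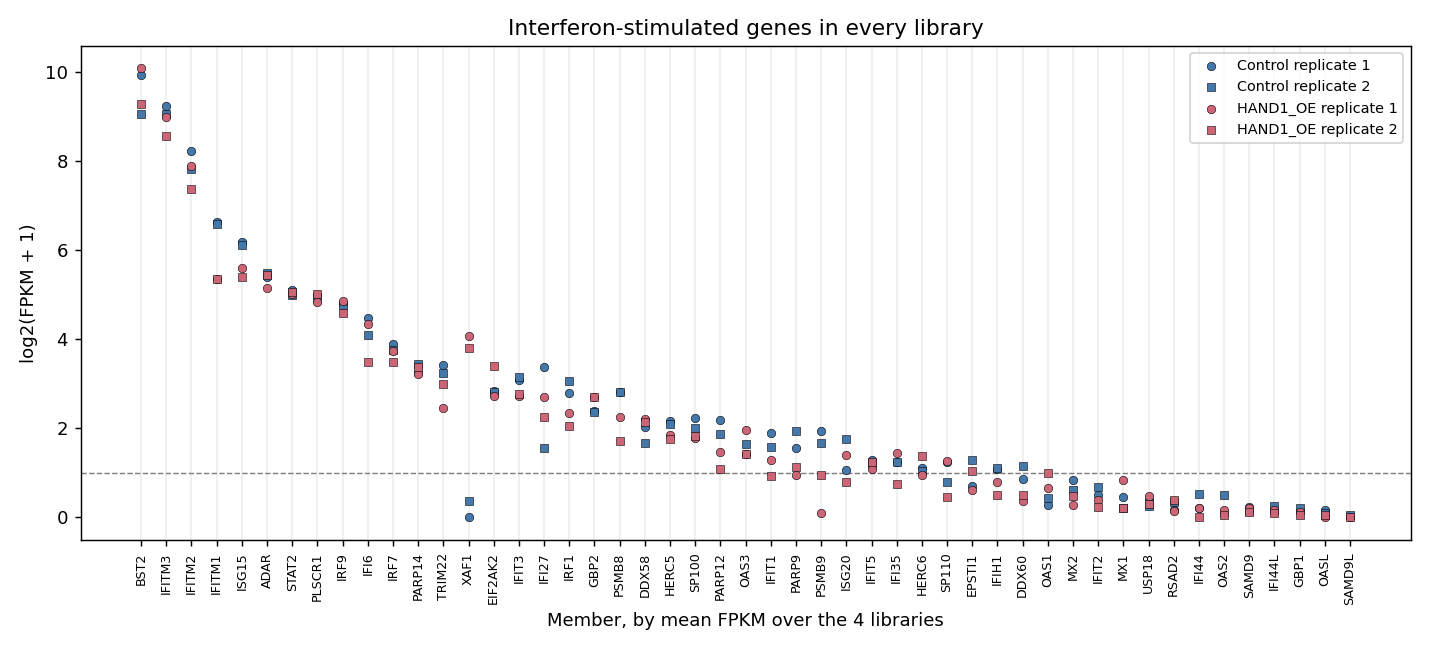
Level of each of the 49 members in each library as log2(FPKM + 1), ordered by mean FPKM, with Control in blue, HAND1_OE in red, circles for replicate 1 and squares for replicate 2. The dashed line is 1 FPKM. XAF1 is the member whose red and blue points lie farthest apart, and BST2 and IFITM1 to IFITM3 are the 4 most abundant.

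The members covered a wide range of levels. Between 30 and 34 members reached 1 FPKM in a library, 25 did so in every library and 11 were always at 10 FPKM or more. The 49 values summed to 2315 and 1703 FPKM in Control against 2155 and 1478 FPKM in HAND1_OE. BST2 and the 3 IFITM genes made up between 81.4% and 86.7% of each sum. The remaining 45 members summed to 331 and 314 FPKM in Control against 287 and 274 FPKM in HAND1_OE, so that both HAND1_OE libraries lay below both Control libraries.

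**Figure D2:**
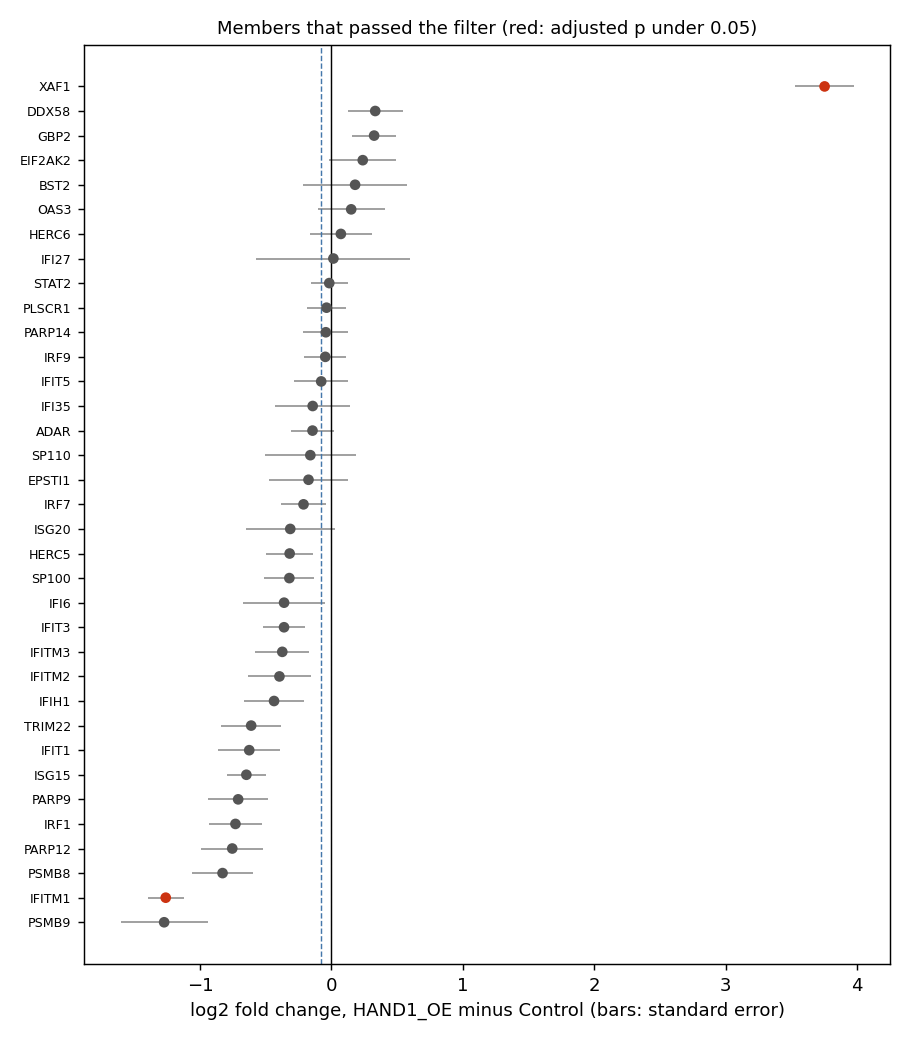
Log2 fold change (HAND1_OE minus Control, log2(FPKM + 1) scale) of the 35 tested members, with bars for the standard error and 2 libraries per group. The dashed line is the median of all genes tested (-0.08), and XAF1 at 3.75 and IFITM1 at -1.26, in red, have an adjusted p under 0.05.

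XAF1 (ENSG00000132530.16, chromosome 17, 6755447 to 6775647, GRCh38, plus strand) encodes XIAP-associated factor 1, which counteracts the caspase inhibitor XIAP. It was listed at 1.08e-05 and 0.295 FPKM in Control against 15.9 and 12.96 FPKM in HAND1_OE. Both HAND1_OE libraries were far above both Control libraries, of which the first was below the value of a single fragment. The means were 0.147 ± 0.208 FPKM in Control and 14.4 ± 2.07 FPKM in HAND1_OE (SD, n = 2), and the log2 fold change was 3.75 ± 0.22 (SE, adjusted p = 0.00607). XAF1 ranked 9 by size among the rises of all genes tested. Among the 49 members it went from rank 49 and 41 by level in Control to rank 11 and 10 in HAND1_OE. With every gene above 0 in any library tested, none of 29860 genes was called, HAND1 included, and XAF1 had an adjusted p of 0.153 in limma. At an unadjusted p under 0.05 that fit held 1458 higher and 2352 lower genes. Leaving out either HAND1_OE library leaves XAF1 with 1 library at 1 FPKM, so it no longer passes the filter. Fitted anyway, an alternative added after the data were seen, it kept a log2 fold change of 3.62 without HAND1_OE replicate 1 and 3.89 without HAND1_OE replicate 2.

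Promoters were read for the elements through which interferon acts and for E-boxes. RefSeq promoters (GRCh38.p14, 250 bases before to 50 bases after the start site) were matched for 40 of the 49 members. The ISRE letters GAAA-NN-GAAA, on either strand, were present in 24 of these 40 promoters (60.0%) and in 3.57% of all 35116 promoters. The GAS letters TTCNNNGAA were present in 11 (27.5%), against 7.66% of all promoters. The E-box letters CANNTG, the kind of element that basic helix-loop-helix factors such as HAND1 bind, were present in 30 (75.0%), against 68.7% of all promoters. The single E-box form CATCTG was present in 7 (17.5%), against 14.7%. The promoters of XAF1, of IFITM1 (the member that fell) and of ISG15, IFIT1 and IFI6 (common readouts of an interferon response) are printed from 5′ to 3′ on the strand of the gene. They lie at chr17:6755796-6756095 (plus strand, XAF1), chr11:313790-314089 (plus, IFITM1), chr1:1013247-1013546 (plus, ISG15), chr10:89392373-89392672 (plus, IFIT1) and chr1:27672143-27672442 (minus, IFI6). Capitals mark ISRE letters on either strand, and in XAF1 alone a shorter form.
XAF1: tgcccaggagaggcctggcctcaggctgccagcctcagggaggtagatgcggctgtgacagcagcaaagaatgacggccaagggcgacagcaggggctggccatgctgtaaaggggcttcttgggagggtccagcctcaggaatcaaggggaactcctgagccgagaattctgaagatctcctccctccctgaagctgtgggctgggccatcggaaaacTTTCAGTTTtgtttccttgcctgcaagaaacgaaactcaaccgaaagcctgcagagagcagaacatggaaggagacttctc
IFITM1: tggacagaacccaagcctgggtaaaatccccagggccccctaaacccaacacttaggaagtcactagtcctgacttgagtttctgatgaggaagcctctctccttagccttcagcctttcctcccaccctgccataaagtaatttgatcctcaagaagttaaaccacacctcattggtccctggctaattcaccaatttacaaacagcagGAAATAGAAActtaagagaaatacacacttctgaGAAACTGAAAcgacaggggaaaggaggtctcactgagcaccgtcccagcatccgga
ISG15: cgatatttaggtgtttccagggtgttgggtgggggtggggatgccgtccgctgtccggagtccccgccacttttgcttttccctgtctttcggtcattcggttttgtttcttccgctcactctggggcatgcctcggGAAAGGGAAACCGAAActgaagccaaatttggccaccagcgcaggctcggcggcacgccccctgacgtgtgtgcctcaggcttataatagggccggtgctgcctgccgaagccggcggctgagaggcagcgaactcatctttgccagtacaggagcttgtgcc
IFIT1: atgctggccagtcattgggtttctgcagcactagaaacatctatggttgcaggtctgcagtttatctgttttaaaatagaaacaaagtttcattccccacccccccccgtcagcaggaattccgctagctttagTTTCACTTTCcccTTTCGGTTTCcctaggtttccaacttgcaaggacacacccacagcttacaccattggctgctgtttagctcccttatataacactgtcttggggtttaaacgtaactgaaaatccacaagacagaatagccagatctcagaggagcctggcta
IFI6: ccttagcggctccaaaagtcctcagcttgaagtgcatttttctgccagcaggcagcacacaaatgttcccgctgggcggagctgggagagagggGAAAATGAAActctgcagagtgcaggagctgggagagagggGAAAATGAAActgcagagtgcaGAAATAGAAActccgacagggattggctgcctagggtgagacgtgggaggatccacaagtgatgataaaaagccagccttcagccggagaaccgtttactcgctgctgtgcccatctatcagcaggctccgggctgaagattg

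The XAF1 promoter held none of the ISRE, GAS, CANNTG or CATCTG letters in this window. It held 1 match of the 9 letters AAA-NN-GAAA, a shorter form that was chosen after the sequence was seen. This match was on the opposite strand and began 31 bases before the start site. The shorter form was present in 29 of the 40 member promoters (72.5%) and in 10.5% of all promoters, and every ISRE match also counts as a match of it. The IFITM1 promoter held ISRE letters that began 40 and 6 bases before the start site and 1 GAS match that began 12 bases before it and overlapped the nearer of them. The ISG15 promoter held 2 overlapping ISRE matches, IFIT1 held 2 and IFI6 held 3. A match is a description of letters, and a missing match says only that these letters are absent from this window. The ranges that the table gives for XAF1, IFITM1 and ISG15 begin before these windows, and other start sites were not read.

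Members with and without ISRE letters were then set side by side. Of the 24 members with ISRE letters, 18 were tested, 0 rose and 1 fell, with a median log2 fold change of -0.32. Of the 16 matched members without them, 13 were tested, 1 rose (XAF1) and 0 fell, with a median of -0.14. Over all genes tested, 2.04% rose and 2.11% fell. The only rise is that of XAF1, which was known when the list was drawn up. IFIH1, with ISRE letters, and PSMB9, without them, passed the filter only through Control. The counts therefore cannot tell the sets apart, and the difference between these sets was not tested.

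The genes around XAF1 were read for a change of the whole locus. Of 57 other genes within 500 kb, 23 were tested, 1 rose and 1 fell, against 2.04% and 2.11% of all genes. PRAL (ENSG00000279296.1, minus strand, 6772831 to 6776116), a provisional gene model of the type TEC, overlaps the end of XAF1 on the opposite strand. It was listed at 0.0901 and 1.8e-06 FPKM in Control against 2.69 and 2.30 FPKM in HAND1_OE. The groups did not overlap and the log2 fold change was 1.74 ± 0.21 (adjusted p = 0.0181). PRAL was at 0.169 and 0.177 of the XAF1 value in the HAND1_OE libraries. The kit does not mark strand, so fragments of XAF1 and of PRAL in their overlap cannot be told apart.

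ALOX12, a platelet-type lipoxygenase gene 220418 bases after XAF1, was at 3.18 and 3.05 FPKM in Control against 0.703 and 0.348 FPKM in HAND1_OE. It fell, in the opposite direction to XAF1 (-1.44 ± 0.22, adjusted p = 0.0312). Nearer to XAF1 lay 3 low genes that were not tested and whose values were higher in HAND1_OE without overlap, named after their values were seen. FBXO39, an F-box gene 576 bases after XAF1, had 0.219 and 0.133 FPKM in HAND1_OE, while each Control library listed it at 0. SLC13A5, a citrate transporter gene 41880 bases before XAF1, was at 0.308 and 0.313 FPKM in Control against 0.944 and 1.04 FPKM in HAND1_OE. ALOX12P2, a pseudogene 78214 bases after XAF1, was at 0.114 and 0.180 FPKM in Control against 0.185 and 0.503 FPKM in HAND1_OE. Of the 34 untested genes within 500 kb, 16 were above 0 in any library, 3 were higher and 7 lower without overlap. Over all 15238 untested genes above 0 in any library, 11.1% were higher and 19.6% lower without overlap. Among the 7 was AC120057.3, at 2.48e-11 FPKM or less in every library, far below the value of a single fragment. The nearest genes with a mean of at least 1 FPKM were C17orf100, 62245 bases before XAF1, and ALOX12-AS1, 100988 bases after it. PRAL passed the filter only through HAND1_OE and ALOX12 only through Control, so both had to differ to be tested. C17orf100 and ALOX12-AS1 had log2 fold changes of 0.03 ± 0.20 and 0.04 ± 0.38, and overlapping groups.

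**Figure D3:**
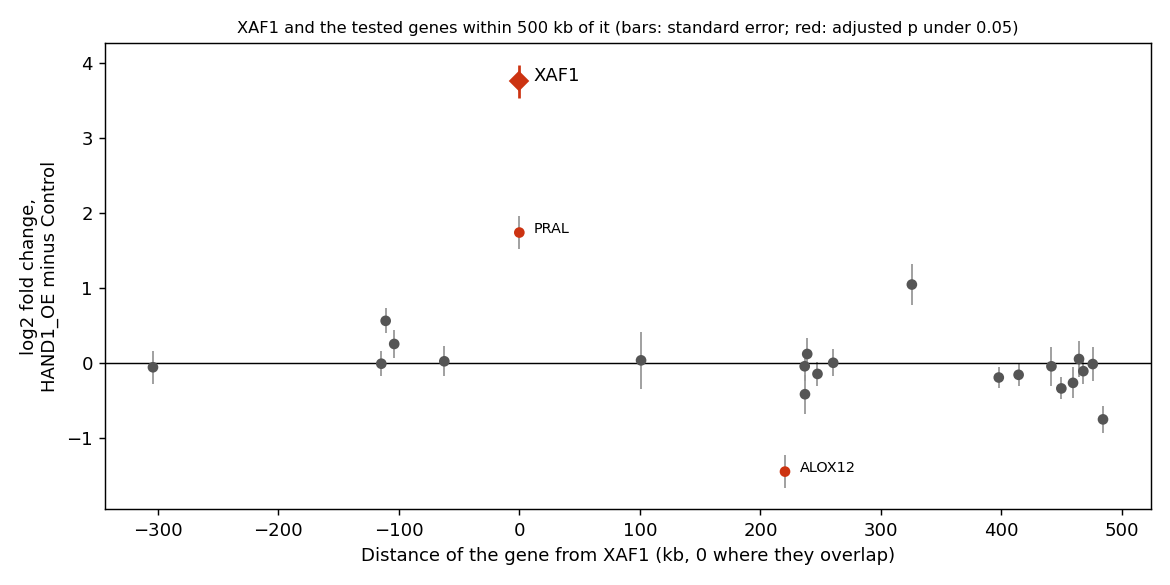
Log2 fold change (HAND1_OE minus Control, bars for the standard error) of XAF1, drawn as a diamond, and of the 23 tested genes within 500 kb, against their distance from XAF1 in kb. XAF1 (3.75), PRAL (1.74) and ALOX12 (-1.44) are in red for an adjusted p under 0.05, and genes that were not tested, among them the low genes FBXO39 and SLC13A5 near XAF1, are not drawn.

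Antiviral effectors were the largest group, with 18 members, of which 11 were tested, 0 rose and 1 fell in limma (unadjusted p under 0.05 in 0 higher genes and in 3 lower ones). IFITM1 (ENSG00000185885.15, chromosome 11, 313506 to 315272, plus strand, GRCh38), whose promoter is printed above, encodes a membrane protein that restricts virus entry. It was at 98.7 and 95.5 FPKM in Control against 40.2 and 39.7 FPKM in HAND1_OE. The libraries of each group lay close together and the groups did not overlap. The means were 97.1 ± 2.29 and 39.9 ± 0.318 FPKM (SD, n = 2) and the log2 fold change was -1.26 ± 0.14 (SE, adjusted p = 0.0125).

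Its paralogs IFITM2 and IFITM3 act on virus entry from endosomes. IFITM2 was at 298 and 226 FPKM in Control against 236 and 164 FPKM in HAND1_OE (-0.40 ± 0.24, adjusted p = 0.50), with overlapping groups. IFITM3 was at 605 and 534 FPKM in Control against 506 and 380 FPKM in HAND1_OE, without overlap, and did not pass the test (-0.37 ± 0.20, adjusted p = 0.445). As a share of the 3 genes' summed FPKM, IFITM1 made up 9.86% and 11.2% in Control and 5.14% and 6.80% in HAND1_OE. The 3 genes are paralogs and IFITM1 lies inside the annotated range of IFITM2, so the division of reads among them is uncertain.

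Markers of other cells were read beside the fall of IFITM1. The 11 pan-hematopoietic markers summed to 130.5 and 147.0 FPKM in Control against 23.8 and 27.1 FPKM in HAND1_OE, with PTPRC at 0 in 1 library of each group. The 10 erythroid markers summed to 850 and 1231 FPKM in Control against 53.9 and 43.4 FPKM in HAND1_OE. Both sums were lower in both HAND1_OE libraries, as IFITM1 was. Myeloid markers (119 and 100.04 against 18.3 and 13.3 FPKM, ELANE at 0 in every library) and megakaryocyte markers (113 and 140.0 against 12.8 and 9.10 FPKM) moved the same way. Lymphoid markers summed to between 2.41 and 3.36 FPKM, and CD3E was at 0 in every library. Plasmacytoid dendritic cell markers, of the cell type known for its interferon output, were at 0 in every library but Control replicate 2, where TCL1A was at 0.173 FPKM. Stroma markers summed to 422 and 343 FPKM in Control against 522 and 469 FPKM in HAND1_OE. Of the 5 tested, 3 were higher and 2 lower without overlap, against 16.2% and 30.1% of all genes tested. Their log2 fold changes ran from -0.82 to 1.41, and 1 of the 3 rose. The part of these cells in the fall of IFITM1, or in the lower values of other members, was not tested.

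BST2, or tetherin, which holds budding virus at the cell surface, was the most abundant member by mean FPKM, and in every library but Control replicate 2, where IFITM3 was slightly higher. It was at 983 and 533 FPKM in Control against 1087 and 619 FPKM in HAND1_OE, so that the first library of each group was the higher one. The groups overlapped (0.18 ± 0.39, adjusted p = 0.88). Replicate 1 was above replicate 2 in both groups for 16 of the 35 tested members (45.7%), against 36.8% of all genes, and below it in both for 5 (14.3%), against 33.3%.

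Further antiviral effectors were named after their values were seen. IFIT1, whose protein binds viral RNA ends, was at 2.69 and 2.00 FPKM in Control against 1.44 and 0.911 FPKM in HAND1_OE (-0.63 ± 0.24, adjusted p = 0.26). IFIT3, its partner, was at 7.48 and 7.83 FPKM in Control against 5.64 and 5.83 FPKM in HAND1_OE (-0.36 ± 0.16, adjusted p = 0.33). Both were lower without overlap and neither passed the test, and both overlap LIPA on the opposite strand, at 21.8 to 33.3 FPKM. GBP2, an interferon-induced GTPase, was at 4.27 and 4.13 FPKM in Control against 5.49 and 5.54 FPKM in HAND1_OE, higher without overlap but not called (0.33 ± 0.17, adjusted p = 0.40). PLSCR1, a phospholipid scramblase, overlapped between the groups at 27.7 to 31.2 FPKM.

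MX1 and 6 other antiviral effectors were not tested. MX1, a GTPase that blocks influenza virus, was at 0.368 and 0.160 FPKM in Control against 0.802 and 0.158 FPKM in HAND1_OE. The others were IFIT2, MX2, RSAD2, GBP1, SAMD9 and SAMD9L, and none of the 7 reached 1 FPKM in a library.

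RNA sensors and synthetases numbered 9, of which 5 were tested and 0 changed in limma (0 also at an unadjusted p under 0.05). DDX58 (RIG-I), which senses viral RNA ends, was at 3.07 and 2.16 FPKM in Control against 3.64 and 3.39 FPKM in HAND1_OE. It was higher without overlap, as XAF1 was, but did not pass the test (0.33 ± 0.21, adjusted p = 0.51). EIF2AK2 (PKR), a kinase that halts translation on double-stranded RNA, was at 6.13 and 6.06 FPKM in Control against 5.61 and 9.59 FPKM in HAND1_OE, so that the groups overlapped (0.24 ± 0.26, adjusted p = 0.74). ADAR, which edits double-stranded RNA, overlapped at 40.9 and 44.2 FPKM in Control against 34.5 and 42.8 FPKM in HAND1_OE (-0.14 ± 0.17, adjusted p = 0.76). IFIH1 (MDA5) was at 1.12 and 1.15 FPKM in Control and under 1 FPKM in both HAND1_OE libraries, at 0.746 and 0.426 (-0.44 ± 0.22, adjusted p = 0.41).

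OAS1, OAS2 and OASL, of the family that activates RNase L or is related to it, and the helicase gene DDX60 were not tested. OAS1 was at 0.209 and 0.348 FPKM in Control against 0.573 and 1.0003 FPKM in HAND1_OE. Among the 14 untested members it was the only one with HAND1_OE higher without overlap, while 7 were lower without overlap and 6 overlapped. Among all 15238 untested genes above 0 in any library, many of them far lower than these, 11.1% were higher and 19.6% lower without overlap. DDX60 was among those 7, at 0.822 and 1.23 FPKM in Control against 0.297 and 0.411 FPKM in HAND1_OE.

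Signal transducers and transcription factors numbered 6, all 6 were tested and 0 changed in limma (1 lower at an unadjusted p under 0.05). STAT2 was at 33.7 and 30.8 FPKM in Control against 31.3 and 32.4 FPKM in HAND1_OE (-0.02 ± 0.14, adjusted p = 0.976). IRF9, its DNA-binding partner, was at 26.6 and 26.2 FPKM in Control against 28.1 and 23.1 FPKM in HAND1_OE (-0.05 ± 0.16, adjusted p = 0.93). Both overlapped between the groups, and their signs turned with quantile normalization and with median-ratio scaling. IRF7, which drives interferon alpha genes, was at 13.9 and 12.5 FPKM in Control against 12.4 and 10.2 FPKM in HAND1_OE (-0.21 ± 0.17, adjusted p = 0.62). IRF1, a factor induced by interferon gamma and named after its values were seen, was at 5.98 and 7.31 FPKM in Control against 4.10 and 3.13 FPKM in HAND1_OE. It was lower without overlap and did not pass the test (-0.73 ± 0.20, adjusted p = 0.14).

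The ISG15 group held 7 members, of which 6 were tested and 0 changed in limma (3 lower at an unadjusted p under 0.05). ISG15, a ubiquitin-like protein that is conjugated to other proteins, was at 71.7 and 68.2 FPKM in Control against 47.3 and 41.5 FPKM in HAND1_OE. Both HAND1_OE libraries were lower without overlap, and the log2 fold change was -0.65 ± 0.15 (SE, adjusted p = 0.0854). With the replicate number as a block it passed the test (adjusted p = 0.0273). HERC5, the ligase that attaches ISG15, was at 3.48 and 3.27 FPKM in Control against 2.63 and 2.40 FPKM in HAND1_OE (-0.32 ± 0.18, adjusted p = 0.46).

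PARP14, an ADP-ribosyltransferase, overlapped at 8.45 and 9.90 FPKM in Control against 8.31 and 9.42 FPKM in HAND1_OE (-0.04 ± 0.17, adjusted p = 0.94). PARP12, named after its values were seen, was at 3.55 and 2.69 FPKM in Control against 1.78 and 1.12 FPKM in HAND1_OE, lower without overlap but not called (-0.75 ± 0.24, adjusted p = 0.18). USP18, which removes ISG15 and is strongly induced by interferon, stayed between 0.200 and 0.393 FPKM and was not tested.

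The immunoproteasome subunits PSMB8 and PSMB9, which replace constitutive subunits when peptides are made for antigen presentation, were both lower at an unadjusted p under 0.05. PSMB8 was at 6.05 and 6.04 FPKM in Control against 3.80 and 2.27 FPKM in HAND1_OE (-0.83 ± 0.23, adjusted p = 0.147). PSMB9 was at 2.81 and 2.20 FPKM in Control against 0.0759 and 0.941 FPKM in HAND1_OE (-1.27 ± 0.33, adjusted p = 0.118). Neither pair of groups overlapped and neither gene passed the test, although PSMB8 did without HAND1_OE replicate 1 (adjusted p = 0.0385) and PSMB9 without HAND1_OE replicate 2 (adjusted p = 0.0103). Their annotated ranges overlap each other on opposite strands and also overlap further annotated genes, so shared fragments cannot be told apart.

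Other interferon-induced proteins numbered 7 with XAF1, of which 5 were tested. IFI6, a mitochondrial protein, was at 21.2 and 15.98 FPKM in Control against 19.2 and 10.3 FPKM in HAND1_OE (-0.36 ± 0.31, adjusted p = 0.65). IFI27, a widely used marker of interferon exposure, was at 9.43 and 1.93 FPKM in Control against 5.499 and 3.80 FPKM in HAND1_OE (0.02 ± 0.59, adjusted p = 0.99). Both overlapped, and the Control libraries of IFI27 differed more from each other than the groups did. IFI44 and IFI44L, which are near 0 without interferon in many cells, were at 0.432 FPKM or less in each library. The tested members not described above, TRIM22, ISG20, IFIT5, OAS3, SP100, SP110, HERC6, PARP9, IFI35 and EPSTI1, had log2 fold changes from -0.71 (PARP9) to 0.15 (OAS3), and none of them passed the test.

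The rest of the pathway, together with XAF1 partners and caspases and with p53 targets, was followed in 7 lists with 125 genes. These are called pathway genes here, and 81 of them were tested. Among them 2 changed (2.47%), against 4.16% of all genes. At an unadjusted p under 0.05, 4 of the 81 were higher and 12 lower, against 6.82% and 10.6% of all genes tested. Of those 4 and 12, XAF1 partners and caspases gave 2 higher genes, and p53 targets gave 1 higher and 2 lower. Sensing adaptors and kinases gave 1 higher and 2 lower, inhibitors 0 and 2, and further interferon targets 0 and 6. The 22 interferon ligand genes were all under 1 FPKM in every library and 16 were at 0 in all. The highest was IFNG at 0.246 FPKM in Control replicate 2, and it was at 0 in both HAND1_OE libraries. Transcripts of interferons were therefore not detectable above this level in these CD31+ cells.

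Receptors and kinases were present, and 10 of 11 were tested with 0 changes in limma (0 also at an unadjusted p under 0.05). TYK2 was at 106.9 and 67.4 FPKM in Control against 98.1 and 64.5 FPKM in HAND1_OE (-0.09 ± 0.30, adjusted p = 0.93). IFNGR1, a chain of the interferon gamma receptor, was at 38.2 and 40.6 FPKM in Control against 31.2 and 43.1 FPKM in HAND1_OE (-0.10 ± 0.19, adjusted p = 0.87). The groups overlapped for both genes.

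Among 17 sensing adaptors and kinases 10 were tested and 1 rose. TRIM25, a ubiquitin ligase that activates RIG-I, was at 4.61 and 5.04 FPKM in Control against 13.4 and 14.9 FPKM in HAND1_OE. Its groups were far apart (1.38 ± 0.16, adjusted p = 0.0160). Over 11 alternatives the log2 fold change of TRIM25 ran from 1.31 to 1.54. IRF3, the factor that switches on interferon beta, was at 71.0 and 58.5 FPKM in Control against 64.8 and 50.7 FPKM in HAND1_OE (-0.17 ± 0.19, adjusted p = 0.75). TMEM173 (STING), the adaptor of cytosolic DNA sensing, was at 17.8 and 26.7 FPKM in Control against 7.75 and 12.8 FPKM in HAND1_OE, lower without overlap but not called (-1.05 ± 0.30, adjusted p = 0.14). It passed the test with the replicate block (adjusted p = 0.0161), without Control replicate 1 (0.0413) and without HAND1_OE replicate 2 (0.0177).

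All 7 inhibitors of interferon signalling were tested and 1 fell. PTPN6 (SHP-1), a phosphatase that is abundant in blood cells, was at 18.7 and 17.9 FPKM in Control against 6.53 and 9.07 FPKM in HAND1_OE (-1.15 ± 0.19, adjusted p = 0.0397). The call was lost when either Control library was left out and when every gene above 0 was tested, and the adjusted p ranged up to 0.20 over 11 alternatives. The blood cell marker sums given above moved with it, and their part in it was not tested. SOCS3, a feedback inhibitor of cytokine receptors, was at 123 and 95.2 FPKM in Control against 88.3 and 78.6 FPKM in HAND1_OE (-0.37 ± 0.18, adjusted p = 0.38). PIAS4, a SUMO ligase, overlapped between the groups at 20.1 to 27.9 FPKM.

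TRIM25, which rose, was listed only with the sensing adaptors and is not counted among the further interferon targets. Of a further 44 interferon targets outside the 49, 29 were tested and 0 changed in limma. At an unadjusted p under 0.05, 0 were higher and 6 lower, against 6.82% and 10.6% of all genes tested. By sign 4 were higher and 25 lower, with a median log2 fold change of -0.23. Over all genes tested, 61.3% had a log2 fold change below 0 and the median was -0.08. IFI16, a DNA sensor, was at 135.9 and 128.8 FPKM in Control against 110.5 and 132.0 FPKM in HAND1_OE. UBE2L6, the ISG15-conjugating enzyme, was at 67.7 and 54.9 FPKM in Control against 61.0 and 52.8 FPKM in HAND1_OE. Both overlapped between the groups. The lowest log2 fold change was that of TNFSF10 (TRAIL), named after its values were seen, at 20.7 and 35.3 FPKM in Control against 2.66 and 8.48 FPKM in HAND1_OE (-2.25 ± 0.49, adjusted p = 0.075). It passed the test in 4 of 11 alternatives, which were the replicate block (adjusted p = 0.0135) and the fits without Control replicate 1 (0.00825), without HAND1_OE replicate 1 (0.00946) and without HAND1_OE replicate 2 (0.000407).

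XAF1 is also known as a p53 target and as a partner of apoptosis regulators, so these lists were read too. Of 11 partners and caspases 10 were tested and 0 changed in limma (2 higher at an unadjusted p under 0.05), with a median log2 fold change of -0.01. RNF114, a ubiquitin ligase, was at 75.0 and 71.6 FPKM in Control against 67.0 and 70.1 FPKM in HAND1_OE (-0.10 ± 0.14, adjusted p = 0.81). DIABLO, a mitochondrial protein that counteracts XIAP, overlapped at 24.5 to 32.2 FPKM. XIAP itself, named after its values were seen, was at 8.52 and 10.3 FPKM in Control against 7.55 and 11.8 FPKM in HAND1_OE (0.01 ± 0.24, adjusted p = 0.989). Of 16 p53 targets all 16 were tested and 0 changed in limma (an unadjusted p under 0.05 in 1 higher and 2 lower genes), with a median of -0.02. BAX, which opens the mitochondrial outer membrane, overlapped at 348.7 to 489.1 FPKM. CDKN1A, a cell cycle inhibitor, was at 100.6 and 126.0 FPKM in Control against 135.6 and 172.3 FPKM in HAND1_OE, higher without overlap but not called (0.44 ± 0.20, adjusted p = 0.35). With the replicate block 4 of the 16 passed the test, CDKN1A (adjusted p = 0.0460) and FDXR (0.0276) higher and BBC3 (0.0225) and PMAIP1 (0.0476) lower.

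**Figure D4:**
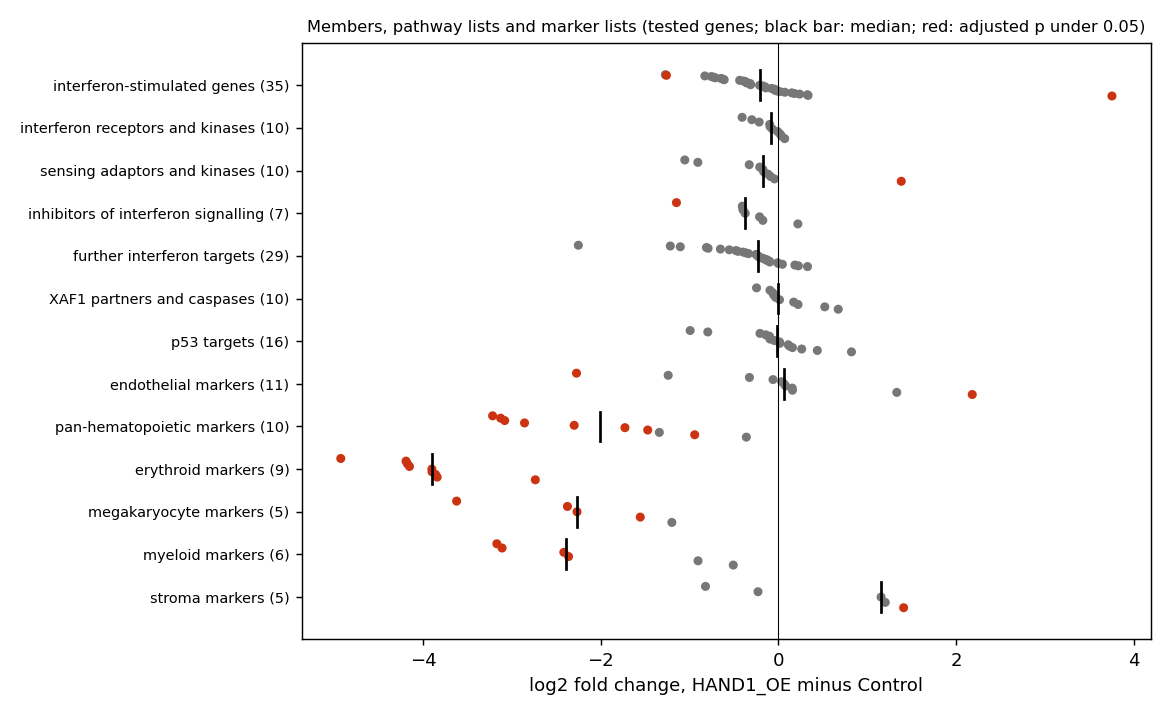
Log2 fold change (HAND1_OE minus Control, log2(FPKM + 1) scale) of the tested genes of the members, of 6 pathway lists and of 6 marker lists, with the number tested in brackets, a black bar at the median and red for an adjusted p under 0.05. Interferon lists centre slightly below 0 (members at -0.21), XAF1 lies alone at the right of its list, and blood cell markers lie far to the left.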

How the data were processed

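RNA was measured in 2 Control and 2 HAND1_OE libraries, grouped by the sample titles and made from total RNA with a TruSeq kit that does not mark strand. The authors deposited a table with a value per gene and library and no stated unit, which was taken as FPKM because the study plots that unit and the values are not whole. The submitters' processing notes name BWA, Bowtie, RSEM and hg19, without versions, while the coordinates of the table are those of GRCh38 (56550 of 58229 genes as in GENCODE release 29). Starts are counted from 1. Of 58365 entries, 45 Y copies of pseudoautosomal genes and 91 entries that shared a gene ID were left out, and 0 value columns had no sample. Reads had been divided between genes by estimation, since 667 to 681 genes per library had values above 0 but under 0.0001 FPKM.

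Members, gene lists, tests and named genes were chosen with earlier results of these data known. Values were compared as log2(FPKM + 1) with limma 3.58.1 in R 4.3.3, with two-sided tests and a trend of variance on mean, for genes at 1 FPKM or more in at least 2 libraries. The code was tested on simulated data. With 2 libraries a group, an exact permutation test cannot reach 0.05. Depth was estimated from the value of a single fragment in single low genes, so counts are not given and no counting interval was computed. Named are HAND1, XAF1, members with an adjusted p under 0.05, members without overlap and an absolute log2 fold change of at least 1, and the 3 most abundant members of each role. To these come the called genes and the 2 most abundant genes of each pathway list, and, around XAF1, the called genes and the nearest gene on each side with a mean of at least 1 FPKM. Genes outside this rule are said to have been chosen after their values were seen, or are untested members, markers or members given to account for the list. Alternatives were a pseudocount of 0.1, every gene above 0, 1 FPKM required in every library, median-ratio scaling, quantile normalization, no trend, a replicate block, each library left out, and a fold change of at least 2. A gene of the pathway lists is not reported here.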

Additional observations from a re-analysis of the deposited data

How the results depend on the processing

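Over the alternatives, IFITM1 was called in 10 of 11 and XAF1 in every one in which it passed the filter but 1, the test of every gene above 0. In that test no gene was called, so the counts of members higher, members lower, pathway genes and genes around XAF1 were each 0, and HAND1 (log2 fold change 5.20) and XAF1 (3.75) had an adjusted p of 0.153 in limma. Of its 49 members, an unadjusted p under 0.05 was reached by 1 higher and 8 lower members. With 1 FPKM required in every library, XAF1, PRAL and ALOX12 were not tested, and 0 members were higher and 0 genes around XAF1 called. Without each library in turn, members called higher ranged from 0 to 1 and members called lower from 1 to 2. The 0 values come from leaving out either HAND1_OE library, where XAF1 no longer passed the filter. PSMB8 is added without HAND1_OE replicate 1, and PSMB9 without HAND1_OE replicate 2. Pathway genes called ranged from 2 to 6 in these fits, with the 6 without HAND1_OE replicate 2 and 4 without Control replicate 1, and PTPN6 was not called without either Control library. The count around XAF1 was 1 in each of them, PRAL without either Control library and ALOX12 without either HAND1_OE library. In these fits the member median ranged from -0.34 to -0.14. It was -0.37 with a pseudocount of 0.1 FPKM and -0.14 with quantile normalization and with median-ratio scaling, under both of which the median of all genes was -0.01 in place of -0.08. The 9-letter motif gave 29 promoters in place of 24.

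With the replicate number as a replicate block, 2 members were lower (IFITM1 and ISG15), 9 pathway genes and 4 genes around XAF1 were called, and 597 genes rose and 712 fell, against 299 and 309 without it. The deviations of libraries with the same number correlated at r = 0.383 over all genes tested, but 2 pairs do not establish a pairing. The cause of these changes was not tested.

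Of 184 values of named members under the alternatives, 18 turned sign, each of a member with no call. With quantile normalization IRF9 was at 0.0027, PARP14 at 0.049 and STAT2 at 0.017, and with median-ratio scaling they were at 0.033, 0.031 and 0.064. Without single libraries the log2 fold change ranged from -0.30 to 0.0084 for ADAR, from -0.26 to 0.62 for BST2, from -0.10 to 0.58 for EIF2AK2, from -0.90 to 0.93 for IFI27, from -0.78 to 0.061 for IFI6, from -0.18 to 0.089 for IRF9, from -0.15 to 0.061 for PARP14 and from -0.078 to 0.045 for STAT2. Depth limits members under 1 FPKM, where 1 fragment of a 1-kb transcript is worth 0.0529 to 0.0639 FPKM.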
